A study of Mus musculus with 15 samples.

Results

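Ribosome biogenesis genes encode the factors that make ribosomal RNA, modify and cut it, and assemble it with ribosomal proteins in the nucleolus. A list of 45 such genes was followed across a microarray study of hypoxia and Hif1a knockdown in mouse melanocytes. Members were taken by gene symbol, from probe sets annotated to exactly 1 gene, with the probe set of highest mean over all arrays standing for its gene. This gave 43 of the 45 genes, among 22180 genes measured. Fbl and Tsr1 were not measured this way, because their probe sets are annotated to a second gene as well. No filter on low values was applied, so all 43 entered each test.

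The cells were melan-Ink4a-Arf-1, 1 immortal pigment cell line from Cdkn2a tm1RDp/tm1RDp mice, which lack the Ink4a-Arf tumour suppressor locus. All 15 cultures therefore carried that deletion, and all grew at 37 °C with 10% serum, 200 nM of the phorbol ester 12-O-tetradecanoylphorbol 13-acetate and 200 pM cholera toxin. They formed 5 groups of 3 arrays, called biological triplicates in the series. The normoxia group was kept at about 21% oxygen and 10% CO2, whereas 4 groups were held in a hypoxic chamber with 1% oxygen and 5% CO2 for 24 h. Oxygen and CO2 thus changed together, and their effects cannot be told apart. Among the hypoxic groups, the hypoxia control and the negative control are labelled only as such, and what each received is not given in the sources used here. Si1 and Si6 each received 1 of 2 small interfering RNAs (siRNAs) against Hif1a 24 h before hypoxia. Hif1a encodes the oxygen-regulated subunit of a transcription factor that accumulates when oxygen is low. The comparisons ask how the genes respond to hypoxia and what Hif1a depletion does to them there.

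RNA polymerase I transcribes the long precursor of most ribosomal RNAs. Small nucleolar RNA-protein particles (snoRNPs) modify and help cut it, large assemblies of UTP and related proteins fold it into the small subunit, and a further set of factors matures the large subunit. The program is known to rise with growth signals and with the transcription factor Myc, and to be among the costliest activities of a growing cell.

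Values are deposited log2 intensities, and array medians lay between 6.52 and 6.61. Arrays of a group correlated at 0.9931 to 0.9957 and arrays of different groups at 0.9782 to 0.9931. A fold change is a difference of group means of 3 arrays, with its standard error (SE) from limma, and "called" means an adjusted p under 0.05 over all genes. The siRNA target Hif1a averaged 10.34 on the normoxia arrays. Its mean was 10.59 for the hypoxia control and 10.63 for the negative control, against 8.65 for Si1 and 8.93 for Si6. Both siRNA groups were below all others, and Si1 was below Si6 by a further 0.28 ± 0.06 (SE, n = 3 arrays each, adjusted p = 0.001 with limma). A dimmer Hif1a probe set, with a mean of 5.4, did not show this fall. Against the negative control it changed by -0.01 with Si1 (adjusted p = 0.956) and -0.07 with Si6 (adjusted p = 0.538, limma). Myc stood at 9.65 in the negative control, rose by 0.31 ± 0.06 with Si1 (adjusted p = 8.0e-04) and fell by 0.60 ± 0.06 with Si6 (adjusted p = 2.4e-06, limma). All 8 melanocyte markers were at 11.23 or above in normoxia, while markers of fibroblasts, keratinocytes, macrophages and endothelium were between 4.39 and 7.39 except the collagen gene Col1a1 at 9.35.

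The members were lowest in the hypoxic controls and highest with Si1. For each gene the normoxia mean was subtracted, and the median over the 43 genes was then taken on every array. The normoxia arrays gave -0.02, -0.02 and 0.04, and the hypoxia control arrays -0.18, -0.22 and -0.18. The negative control arrays gave -0.15, -0.12 and -0.14. The Si1 arrays gave 0.57, 0.57 and 0.67, and the Si6 arrays 0.24, 0.20 and 0.22. No Si1 or Si6 array overlapped any other group, and each hypoxic control array was below each normoxia array. Of the 43 members, 40 (93.0%) had their highest group mean in Si1, against 23.8% of all genes. The lowest mean was in the hypoxia control for 21 members (48.8%) and in the negative control for 12 (27.9%), against 14.7% and 17.1% of all genes.

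**Figure D1:**
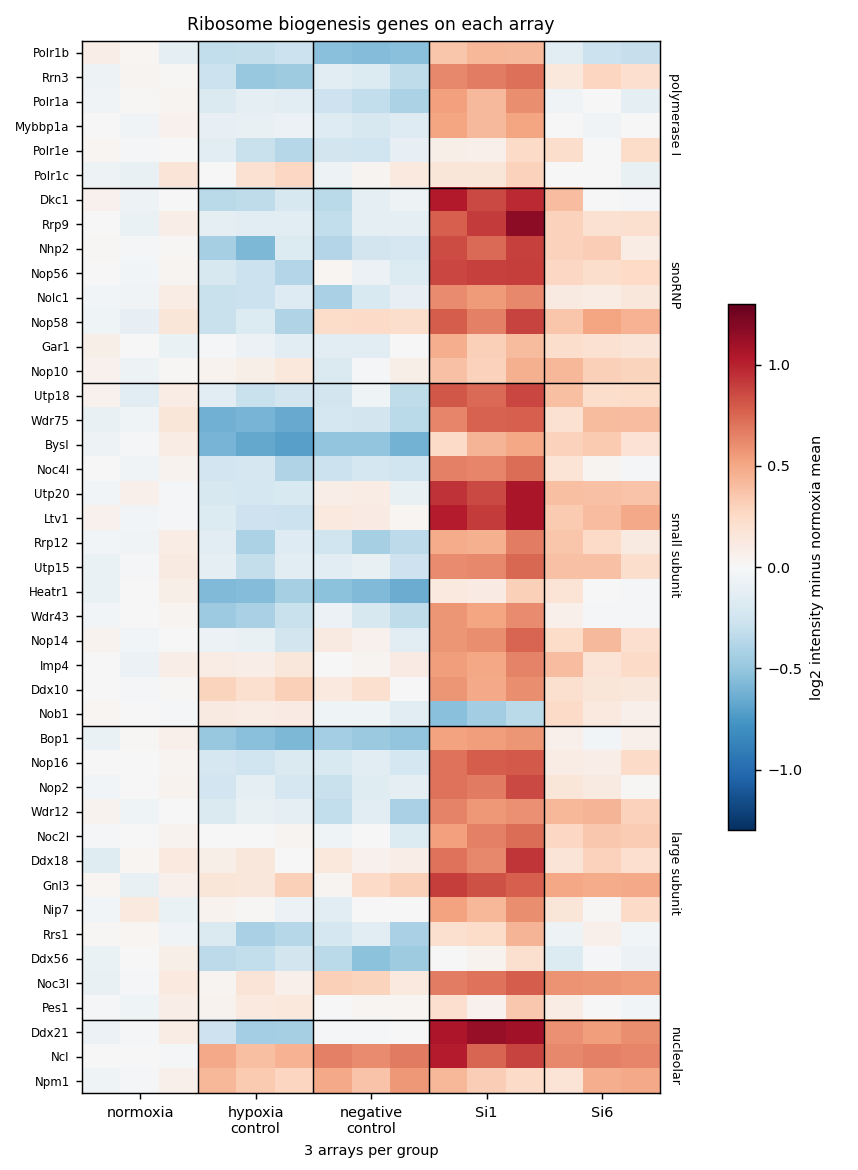
Heat map of log2 intensity minus the gene's normoxia mean, for the 43 measured genes (rows, grouped by role and ordered by the change with Si1) on all 15 arrays (columns, 3 per group). Red is higher and blue lower than normoxia. The Si1 columns are red, or near white as for Ddx56, in all rows but Nob1, which is blue, and Ncl and Npm1 are red in both hypoxic control groups, where the median over genes was below 0.

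Most members rose with both siRNAs, and the DNA around their start sites was examined for the letters that 2 families of factors are known to bind. CACGTG is the E-box bound by Myc and its relatives, while ACGTG and GCGTG are the core letters bound by hypoxia-inducible factors. RefSeq promoter windows (GRCm38.p6, 250 bases before to 50 after the start) were found for 40 of the 45 genes and searched on both strands. A gene was counted once if any of its windows matched, whereas shares of all windows count each window. CACGTG, which holds ACGTG on each strand, was found for 10 genes (25%), against 9.19% of array genes and 7.15% of all windows. It lay after the start in Ltv1, Mybbp1a, Pes1, Tsr1, Utp20 and Wdr43, and before it in Imp4, Nop2, Rrn3 and Utp18. ACGTG was found for 16 genes (40.0%, against 23.8% of array genes and 19.6% of all windows) and GCGTG for 33 (82.5%, against 41.9% and 32.4%). The member windows were also richer in G and C, with a median of 59.3% against 56.7% for array genes. Among measured members, the 9 with CACGTG had a median change with Si1 of 0.89 and the 30 without it 0.75. With Si6 these medians were 0.30 and 0.32. Stretches of 250 bases before the start are printed 5′ to 3′ in the direction of the gene, with ACGTG or GCGTG on either strand in capitals. Rrn3, Nop2 and Utp18 are shown as members that rose with both siRNAs and carry CACGTG there. Dkc1 is shown because it rose with both and has none of these letters in this stretch, and Nob1 because it fell with Si1.
Rrn3, chr16:13780449-13780698, plus strand: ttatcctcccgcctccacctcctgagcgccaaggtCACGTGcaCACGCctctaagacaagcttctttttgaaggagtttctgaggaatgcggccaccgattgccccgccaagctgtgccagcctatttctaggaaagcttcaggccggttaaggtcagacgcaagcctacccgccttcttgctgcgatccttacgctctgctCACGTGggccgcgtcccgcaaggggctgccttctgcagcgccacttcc
Nop2, chr6:125131633-125131882, plus strand: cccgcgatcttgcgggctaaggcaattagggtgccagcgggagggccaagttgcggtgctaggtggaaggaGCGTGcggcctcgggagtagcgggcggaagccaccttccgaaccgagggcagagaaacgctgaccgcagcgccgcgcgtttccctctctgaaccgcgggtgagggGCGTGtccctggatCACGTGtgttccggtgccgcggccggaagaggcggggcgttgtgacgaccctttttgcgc
Utp18, chr11:93885767-93886016, minus strand: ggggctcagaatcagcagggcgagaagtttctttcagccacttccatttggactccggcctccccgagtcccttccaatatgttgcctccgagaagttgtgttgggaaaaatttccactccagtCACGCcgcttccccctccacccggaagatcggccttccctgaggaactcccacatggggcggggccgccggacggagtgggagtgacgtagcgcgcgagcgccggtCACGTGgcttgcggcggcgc
Dkc1, chrX:75095604-75095853, plus strand: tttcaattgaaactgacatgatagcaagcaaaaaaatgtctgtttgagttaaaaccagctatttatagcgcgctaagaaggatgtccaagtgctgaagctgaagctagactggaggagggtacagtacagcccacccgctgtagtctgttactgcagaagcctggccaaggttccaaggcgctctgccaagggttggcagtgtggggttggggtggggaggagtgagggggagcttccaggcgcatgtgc
Nob1, chr8:107425039-107425288, minus strand: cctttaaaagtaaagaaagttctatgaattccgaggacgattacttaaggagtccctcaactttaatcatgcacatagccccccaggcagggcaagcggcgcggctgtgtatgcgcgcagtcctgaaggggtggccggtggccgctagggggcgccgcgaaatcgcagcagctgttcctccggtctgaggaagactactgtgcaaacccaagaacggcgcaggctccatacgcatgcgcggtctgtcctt
A match is only a match of letters. Binding was not measured here.

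Hypoxia lowered many of the measured members. In the hypoxia control against normoxia, 20 of 43 (46.5%) were lower, where 11.2% of all genes were lower. The 3 members that were higher (6.98%, where 9.87% of all genes were higher) were Ncl, Npm1 and Ddx10. The median change was -0.22, against about 0 over all genes, and the range ran from -0.66 for Bysl to 0.44 for Ncl. All genes include many dim ones, whereas 42 of the 43 members were in the brighter 50% of genes (11090). In a fit of that part, 24 members and 2754 genes were lower, and 4 members and 2261 genes were higher. The calls of Nolc1, Nop2, Nop58, Polr1e, Rrs1 and Utp20 were lost when one or another of the 3 hypoxia control or the 3 normoxia arrays was left out, with limma adjusted p-values from 0.052 to 0.116.

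The 2 hypoxic control groups differed in 9 members. Against the hypoxia control, the negative control was higher in 7 members (16.3%, where 7.80% of all genes were higher). These were Nop58, Ddx21, Wdr75, Ltv1, Utp20, Nop56 and Ncl. It was lower in 2 (4.65%, where 7.51% of all genes were lower), Polr1b and Nob1. The median change was 0.02. Among the brighter 50% of genes, 9 of 42 members and 1847 of 11090 genes were higher. There, 4 members and 2003 genes were lower. Taken over both directions, the members were thus called no more often than brighter genes in general. The count of 7 fell to 4 without negative control array a and also without hypoxia control array b. Nop56 lost its call without hypoxia control b or c or negative control a or b (limma adjusted p = 0.057 to 0.117). Utp20 lost its call without hypoxia control b or negative control a or b (0.059 to 0.082). Dimmer probe sets changed by -0.12 for Ddx21 and by 0.08 and 0.14 for Nop56, without a call. Set against normoxia, the negative control was lower in 18 members (41.9%, where 15.7% of all genes were lower) and higher in 5 (11.6%, where 14.6% were higher). The 5 were Ncl, Npm1, Nop58, Noc3l and Gnl3. The median change was -0.18. Among the brighter 50% of genes, 20 of 42 members and 3459 of 11090 genes were lower. There, 5 members and 2945 genes were higher. Without normoxia array c the 18 became 12, and without normoxia array a the 5 became 2. Of the 18, Nhp2, Nolc1, Nop2, Rrn3, Rrs1, Wdr43 and Wdr75 lost their calls when certain single negative control or normoxia arrays were left out. Their limma adjusted p-values were then 0.052 to 0.141. Without negative control array a or b or normoxia array b the 5 became 3. Gnl3 lost its call without any 1 of the siRNA arrays or hypoxia control a or b (limma adjusted p = 0.052 to 0.060). Gnl3 also lost it without negative control b or c or normoxia a or b (up to 0.198). Nop58 lost its call without any 1 of the negative control arrays or normoxia a or b (up to 0.135). Noc3l lost its call without negative control a or normoxia a (up to 0.057).

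Both siRNAs raised most members above the negative control. With Si1, 40 of 43 (93.0%) were higher, where 20.2% of all genes were higher, and Nob1 alone was lower (2.33%, where 14.8% of all genes were lower). The median change was 0.77 and the highest 1.13, a 2.19-fold rise, for Rrp9 and Dkc1. With Si6, 35 of 43 (81.4%) were higher, where 17.0% of all genes were higher, and 0 were lower, also at an unadjusted p under 0.05, where 11.9% of all genes were lower (limma). The median change was 0.32 and the highest 0.82, a 1.76-fold rise, for Bysl. These 2 comparisons share the negative control arrays. Among the brighter 50% of genes, 39 of 42 members and 4195 of 11090 genes rose with Si1, and 36 members and 4007 genes with Si6. There, 1 member and 2906 genes fell with Si1, and 0 members and 2358 genes with Si6. Leaving out single arrays cost Si1 only the call of Pes1, without any of Si1 a or c, Si6 b, hypoxia control b or c, or the 3 negative control arrays (limma adjusted p = 0.051 to 0.212). In Si6 it cost the calls of 6 genes. Dkc1 lost its call without Si6 a or negative control a (limma adjusted p up to 0.165), Imp4 without Si6 a or negative control a or b (up to 0.097), and Mybbp1a without Si6 c or negative control b (up to 0.065). Nop14 lost it without Si6 b or negative control c (0.077), Rrs1 without Si6 b or c or negative control a or c (up to 0.164), and Wdr43 without Si6 a or b or negative control b or c (up to 0.134). Nip7 gained a call without Si6 b and Nop58 without normoxia c.

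**Figure D2:**
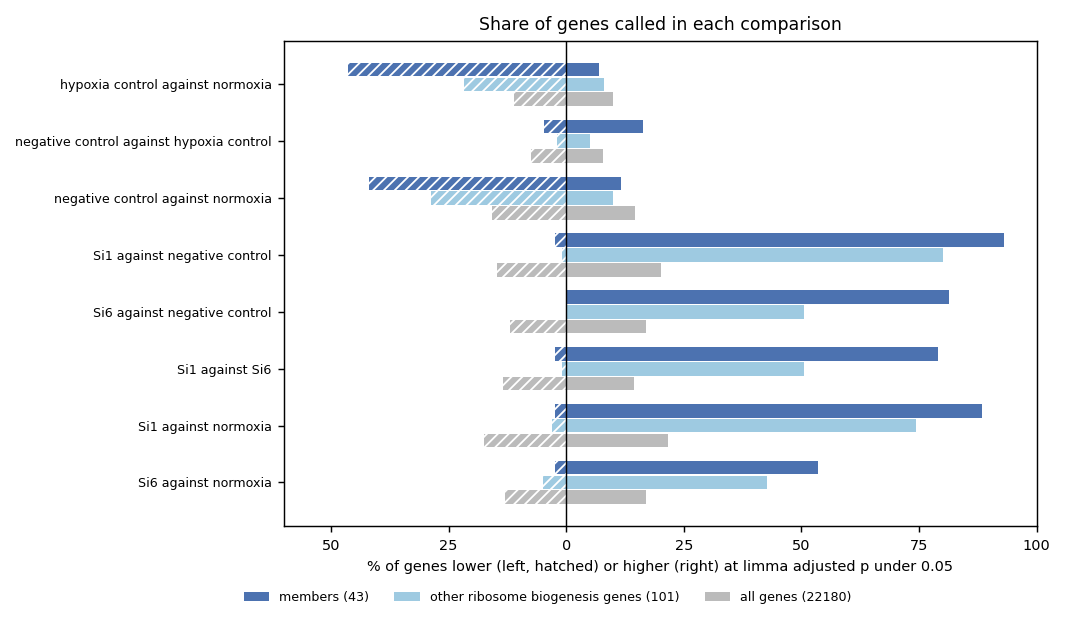
Bars give the percentage of genes called higher (right) or lower (left, hatched) at a limma adjusted p under 0.05 in 8 comparisons, for the 43 members, 101 other ribosome biogenesis genes and all 22180 genes. The member bars reach 93.0% higher with Si1 and 81.4% with Si6 against the negative control, and 46.5% lower in the hypoxia control against normoxia.

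The rise was larger with Si1 than with Si6. In the direct test, 34 members (79.1%) were higher in Si1, where 14.5% of all genes were higher, and 1, Nob1, was lower (2.33%, where 13.4% of all genes were lower). The median difference was 0.37. Among the brighter 50% of genes, 37 of 42 members and 2948 of 11090 genes were higher in Si1. There, 1 member and 3046 genes were lower. Single arrays decided 5 of the 34. Polr1c lost its call without any 1 of the 6 siRNA arrays, hypoxia control b or negative control b (limma adjusted p = 0.052 to 0.161). Gar1 lost it without Si1 a or c or Si6 b or c (up to 0.112), and Wdr12 without Si1 a or c or Si6 c (up to 0.128). Rrp12 lost it without Si1 c or Si6 c (up to 0.091) and Rrs1 without Si1 c (0.055). Pes1, which missed the threshold, passed it without Si1 b, Si6 a or normoxia c.

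Set against normoxia, Si1 was higher in 38 members (88.4%, where 21.7% of all genes were higher) and lower in 1 (2.33%, where 17.4% were lower), with a median of 0.60. Si6 was higher in 23 (53.5%, where 17.0% of all genes were higher) and lower in 1 (2.33%, where 13.1% were lower), with a median of 0.23. The gene below normoxia was Nob1 with Si1 and Polr1b with Si6. The mean of both siRNA groups was above normoxia in 35 members (81.4%, where 20.8% of all genes were higher) and below it in 1, Nob1 (2.33%, where 16.7% were lower). That Nob1 value, -0.14 ± 0.05, averages Si1 (-0.44) with Si6 (0.15), and its call was lost without Si1 a or b, Si6 b or c, or any 1 of the normoxia arrays (limma adjusted p = 0.052 to 0.119). These comparisons share the normoxia arrays.

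Single arrays also decided calls of each siRNA against normoxia. With Si1, Pes1 lost its call without Si1 a or c or normoxia a or b (limma adjusted p up to 0.146) and Rrs1 without Si1 c (0.051). With Si6, Ddx18 lost it without any 1 of 12 arrays, namely all but Si1 b, Si1 c and normoxia c (up to 0.222), and Ddx10 without any 1 of the Si6 or normoxia arrays (up to 0.104). Rrp12 lost it without Si6 a or b or normoxia a or b (up to 0.161), and Gar1 without Si6 a or b or normoxia c (up to 0.095). Utp18 lost it without Si6 a or normoxia b (up to 0.080), Nop14 without Si6 b (0.064), and Rrn3 without Si6 b or c or normoxia a (up to 0.103).

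The hypoxia comparison and the siRNA comparisons share no array, so they can be read together. Of the 20 members that hypoxia lowered, all 20 rose with Si1 and 19 rose with Si6. Among the 2474 genes of the whole array that hypoxia lowered, 54.9% rose with Si1 and 59.0% with Si6. Of the 20 members not called in hypoxia, 18 rose with Si1 and 16 with Si6, against 15.7% and 12.1% of the 17516 such genes. Of the 3 that hypoxia raised, Ncl and Ddx10 rose with Si1, and with Si6 the changes of all 3 lay between -0.09 and 0.06 without a call. Of the 2190 genes that hypoxia raised, 16.3% rose and 48.0% fell with Si1, and 8.72% rose and 48.9% fell with Si6.

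**Figure D3:**
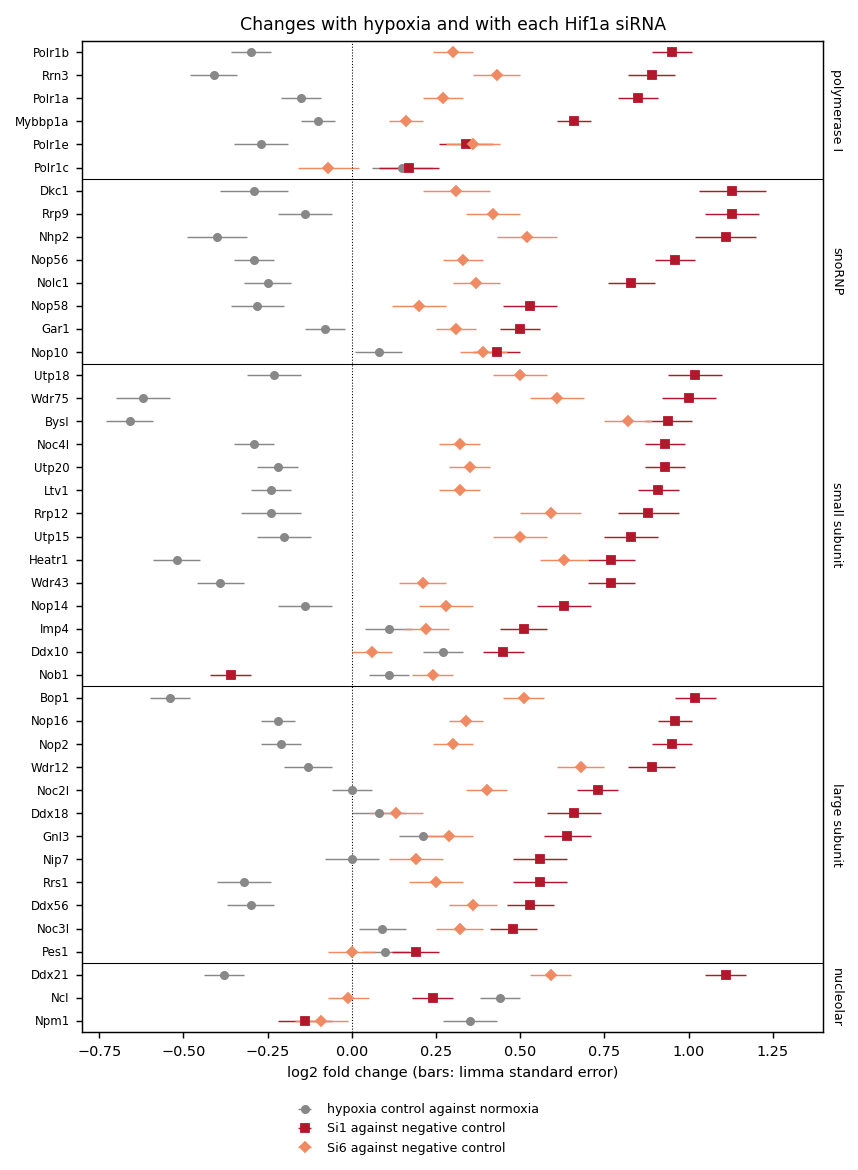
Log2 fold change of each measured gene (rows, grouped by role) in the hypoxia control against normoxia (grey circles), Si1 against the negative control (red squares) and Si6 against the negative control (orange diamonds), with bars of 1 limma standard error. Red squares lie right of 0 for all genes but Nob1 and Npm1, and right of the orange diamonds for all but Polr1e, Nob1 and Npm1.

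The RNA polymerase I genes rose with Si1 in 5 of 6 cases and with Si6 in 5 of 6, with medians of 0.76 and 0.29. Of all genes, 20.2% rose with Si1 and 17.0% with Si6. Polr1a, the largest catalytic subunit, rose by 0.85 ± 0.06 with Si1 and by 0.27 ± 0.06 with Si6. Polr1b, the second large subunit, read 8.47, 8.41 and 8.26 in normoxia, 8.06, 8.07 and 8.10 in the hypoxia control and 7.84, 7.82 and 7.84 in the negative control. It read 8.74, 8.81 and 8.80 with Si1 and 8.23, 8.10 and 8.08 with Si6. The Si1 arrays were above all others and the negative control arrays below all others, with Si6 below normoxia and touching the range of the hypoxia control. The rise of Polr1b was 0.95 ± 0.06 with Si1 (adjusted p = 5.3e-09, limma) and 0.30 ± 0.06 with Si6 (adjusted p = 8.7e-04). It was also the largest fall of any member from the hypoxia control to the negative control, at -0.25 ± 0.06 (adjusted p = 0.009, limma).

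Rrn3 encodes TIF-IA, the factor that makes polymerase I competent to start and that responds to growth signals. Its arrays read 10.21, 10.32 and 10.30 in normoxia, 10.00, 9.79 and 9.82 in the hypoxia control and 10.14, 10.10 and 9.95 in the negative control. They read 10.90, 10.95 and 11.00 with Si1 and 10.42, 10.56 and 10.50 with Si6. Both siRNA groups lay above every other array, and the 2 hypoxic controls lay below normoxia. Rrn3 fell by 0.41 ± 0.07 in hypoxia (adjusted p = 3.9e-04) and rose by 0.89 ± 0.07 with Si1 (adjusted p = 4.8e-08) and 0.43 ± 0.07 with Si6 (adjusted p = 1.5e-04, limma). Mybbp1a, a nucleolar Myb-binding protein, rose by 0.66 with Si1 and 0.16 with Si6. Polr1e, a subunit particular to polymerase I, rose by 0.34 and 0.36, and the difference between the siRNAs was -0.02 ± 0.08 (adjusted p = 0.907, limma). Polr1c, which polymerase III shares, changed by 0.17 with Si1 (adjusted p = 0.139) and -0.07 with Si6 (adjusted p = 0.614, limma) and was called in neither.

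The snoRNP genes had the largest median change with Si1 of the 5 roles, 0.90, and all 8 rose, where 20.2% of all genes rose. With Si6, 7 of 8 rose, where 17.0% of all genes rose, with a median of 0.35. Dkc1 encodes dyskerin, the pseudouridine synthase of the H/ACA particles. Its arrays read 8.11, 7.98 and 8.06 in normoxia, 7.70, 7.72 and 7.84 in the hypoxia control, and 7.70, 7.92 and 7.98 in the negative control. They read 9.08, 8.91 and 9.02 with Si1, and 8.45, 8.05 and 8.03 with Si6. All Si1 arrays were far above the rest, whereas array a of Si6 stood apart from its other arrays, which overlapped normoxia. The rise was 1.13 ± 0.10 with Si1 (adjusted p = 2.6e-07, limma) and 0.31 ± 0.10 with Si6 (adjusted p = 0.032), where it was 0.17 without Si6 array a (adjusted p = 0.165) and 0.22 without negative control array a (adjusted p = 0.150). The difference between the siRNAs, 0.82 ± 0.10 (adjusted p = 1.3e-05, limma), was the largest among the members.

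Rrp9 (U3-55K) is a protein of the U3 particle, which guides the first cuts of the precursor. It read 8.19, 8.09 and 8.27 in normoxia, 8.05, 8.04 and 8.04 in the hypoxia control and 7.86, 8.06 and 8.06 in the negative control. It read 8.96, 9.09 and 9.34 with Si1 and 8.48, 8.38 and 8.39 with Si6. The Si1 arrays were highest, the Si6 arrays came next, and neither overlapped another group. The rise of Rrp9 was 1.13 ± 0.08 with Si1 (adjusted p = 3.6e-08) and 0.42 ± 0.08 with Si6 (adjusted p = 0.001, limma). Nhp2, Gar1 and Nop10, the partners of dyskerin, rose by 1.11, 0.50 and 0.43 with Si1 and by 0.52, 0.31 and 0.39 with Si6. Only for Nop10 among these was a difference between the siRNAs not called, at 0.04 ± 0.07 (adjusted p = 0.783, limma).

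Nop58, a core protein of the C/D particles that methylate ribosomal RNA, read 8.18, 8.13 and 8.40 in normoxia, 7.95, 8.06 and 7.85 in the hypoxia control and 8.48, 8.49 and 8.47 in the negative control. It read 9.03, 8.89 and 9.12 with Si1 and 8.60, 8.75 and 8.69 with Si6. Its negative control arrays were above those of the hypoxia control by 0.52 ± 0.08 (adjusted p = 2.6e-04, limma), the largest such rise among the members. The Si6 arrays were above the negative control arrays without overlap, yet the change of 0.20 ± 0.08 was not called (adjusted p = 0.074, limma). Its partner Nop56 rose by 0.96 with Si1 and by 0.33 with Si6. A dimmer Nop56 probe set went the other way with Si1, at -0.20 (adjusted p = 0.035, limma), and the third probe set rose by 0.82 (adjusted p = 1.5e-04). With Si6 they changed by -0.13 and 0.32 without a call, and in hypoxia by -0.14 and -0.32 without a call. In Si1 against normoxia they changed by -0.26 (adjusted p = 0.006) and 0.64 (adjusted p = 0.001, limma). Nolc1, a phosphoprotein that escorts snoRNPs, rose by 0.83 and 0.37.

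Small subunit factors rose in 13 of 14 cases with Si1 and in 13 of 14 with Si6, with medians of 0.86 and 0.34. Of all genes, 20.2% and 17.0% rose. Utp18, a protein of the UTPB complex on the early precursor, read 8.34, 8.14 and 8.38 in normoxia, 8.14, 7.99 and 8.04 in the hypoxia control and 8.04, 8.22 and 7.95 in the negative control. It read 9.09, 9.02 and 9.15 with Si1 and 8.67, 8.51 and 8.52 with Si6. Both siRNA groups were clear of the rest, which overlapped one another. Utp18 rose by 1.02 ± 0.08 (adjusted p = 6.9e-08) and 0.50 ± 0.08 (adjusted p = 1.8e-04, limma). Utp15, Wdr43, Wdr75 and Heatr1, proteins of the UTPA complex that binds the nascent precursor, rose by 0.83, 0.77, 1.00 and 0.77 with Si1. With Si6 they rose by 0.50, 0.21, 0.61 and 0.63. In hypoxia Wdr75, Heatr1 and Wdr43 had fallen by 0.62, 0.52 and 0.39, whereas Utp15 changed by -0.20 without a call (adjusted p = 0.074, limma).

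Bysl (bystin), a late small subunit assembly factor, read 7.87, 7.91 and 8.04 in normoxia. It read 7.34, 7.27 and 7.23 in the hypoxia control and 7.43, 7.43 and 7.33 in the negative control. With Si1 it read 8.19, 8.38 and 8.44, and with Si6 8.24, 8.28 and 8.13. Hypoxic controls were below normoxia and both siRNA groups were above it, without overlap. In hypoxia Bysl fell by 0.66 ± 0.07 on the log2 scale, a 1.58-fold decrease (adjusted p = 6.5e-06, limma) and the largest fall among the members. Bysl rose by 0.94 ± 0.07 with Si1 and 0.82 ± 0.07 with Si6, and the difference between them was 0.12 ± 0.07 (adjusted p = 0.262, limma). Heatr1 likewise differed between the siRNAs by 0.14 ± 0.07 without a call (adjusted p = 0.204).

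Noc4l, whose yeast counterpart works with that of Nop14 in the small subunit precursor, read 8.09, 8.04 and 8.14 in normoxia, 7.84, 7.87 and 7.70 in the hypoxia control and 7.81, 7.86 and 7.83 in the negative control. It read 8.75, 8.72 and 8.82 with Si1 and 8.27, 8.13 and 8.07 with Si6. Si1 was above all others, while Si6 was above the hypoxic controls and overlapped normoxia. The rises were 0.93 ± 0.06 with Si1 (adjusted p = 1.1e-08) and 0.32 ± 0.06 with Si6 (adjusted p = 8.8e-04, limma). Nop14 itself rose by 0.63 and 0.28. Utp20, Ltv1 and Rrp12, factors of precursor processing, of late assembly and of export, rose by 0.93, 0.91 and 0.88 with Si1 and by 0.35, 0.32 and 0.59 with Si6. Imp4, a U3 particle protein, rose by 0.51 and 0.22. The helicase Ddx10 rose by 0.45 with Si1 and changed by 0.06 with Si6 without a call (adjusted p = 0.511, limma).

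Nob1 is the endonuclease that makes the last cut at the end of small subunit RNA in the cytoplasm, and it was the only member that fell with Si1. Its arrays read 9.61, 9.57 and 9.55 in normoxia, 9.70, 9.68 and 9.69 in the hypoxia control and 9.52, 9.52 and 9.44 in the negative control. They read 9.04, 9.13 and 9.23 with Si1 and 9.83, 9.71 and 9.65 with Si6. The Si1 arrays were below every other array and the Si6 arrays above normoxia. Nob1 fell by 0.36 ± 0.06 with Si1 (adjusted p = 1.3e-04) and rose by 0.24 ± 0.06 with Si6 (adjusted p = 0.006, limma). The difference between Si1 and Si6 was -0.60 ± 0.06 (adjusted p = 1.3e-06, limma). Its call between the 2 hypoxic controls, -0.20 ± 0.06 (adjusted p = 0.033), was lost without any 1 of their 6 arrays (0.060 to 0.110).

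Large subunit factors rose in 12 of 12 cases with Si1 and in 9 of 12 with Si6, with medians of 0.65 and 0.31. Of all genes, 20.2% and 17.0% rose. Bop1, with Pes1 and Wdr12, forms the PeBoW complex needed to process the large subunit precursor. Bop1 read 9.07, 9.18 and 9.23 in normoxia, 8.67, 8.62 and 8.58 in the hypoxia control and 8.72, 8.68 and 8.65 in the negative control. It read 9.68, 9.70 and 9.73 with Si1 and 9.23, 9.12 and 9.23 with Si6. The hypoxic controls were low, Si6 was back within the range of normoxia and Si1 was above all. Bop1 fell by 0.54 ± 0.06 in hypoxia (adjusted p = 3.8e-06) and rose by 1.02 ± 0.06 with Si1 (adjusted p = 1.1e-09) and 0.51 ± 0.06 with Si6 (adjusted p = 3.8e-06, limma).

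Of the other PeBoW genes, Wdr12 rose by 0.89 ± 0.07 with Si1 and 0.68 ± 0.07 with Si6. Pes1 read 9.21, 9.17 and 9.32 in normoxia, 9.28, 9.36 and 9.37 in the hypoxia control and 9.22, 9.26 and 9.26 in the negative control. It read 9.45, 9.29 and 9.58 with Si1 and 9.33, 9.24 and 9.19 with Si6, so that only Si1 arrays a and c stood above the other groups. Pes1 changed by 0.19 ± 0.07 with Si1, a call close to the threshold (adjusted p = 0.042, limma) that fell to 0.12 without Si1 array c (adjusted p = 0.212), and by 0.00 ± 0.07 with Si6 (adjusted p = 0.988).

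Nop2, a methyltransferase of large subunit RNA known as the proliferation antigen p120, read 9.12, 9.16 and 9.21 in normoxia, 8.91, 9.03 and 8.94 in the hypoxia control and 8.87, 9.0 and 9.03 in the negative control. It read 9.87, 9.84 and 10.02 with Si1 and 9.32, 9.28 and 9.18 with Si6. Si1 was above all other arrays, and Si6 was above the hypoxic controls and overlapped normoxia at its lowest array. The rises were 0.95 ± 0.06 (adjusted p = 1.3e-08) and 0.30 ± 0.06 (adjusted p = 0.002, limma), and the difference between the siRNAs was 0.65 ± 0.06 (adjusted p = 1.3e-06). Nop16, Noc2l, Noc3l and Gnl3 (nucleostemin) rose by 0.96, 0.73, 0.48 and 0.64 with Si1 and by 0.34, 0.40, 0.32 and 0.29 with Si6. Rrs1, which helps bring the 5S particle into the large subunit, and the helicase Ddx56 rose by 0.56 and 0.53 with Si1 and by 0.25 and 0.36 with Si6. A dimmer Rrs1 probe set rose by 0.30 with Si1 (adjusted p = 8.7e-04, limma), but changed by 0.04 with Si6 (adjusted p = 0.674) and by -0.03 in hypoxia (adjusted p = 0.833), where the brighter one was called at -0.32. Ddx18 and Nip7 rose by 0.66 and 0.56 with Si1, and their changes with Si6, 0.13 (adjusted p = 0.283) and 0.19 (adjusted p = 0.082, limma), were not called.

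**Figure D4:**
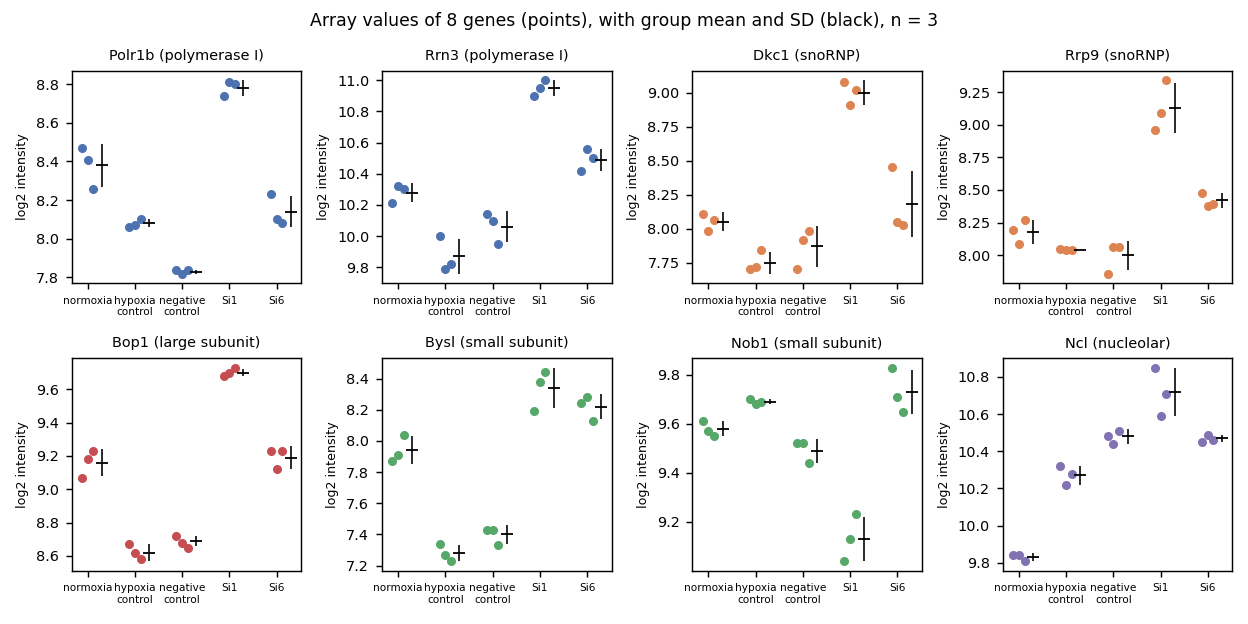
Log2 intensity on each array (coloured points, 3 per group) of Polr1b, Rrn3, Dkc1, Rrp9, Bop1, Bysl, Nob1 and Ncl, with the group mean and SD in black; each panel has its own axis, which does not start at 0. Si1 is the highest group for all but Nob1, where it is lowest at 9.04 to 9.23, and Ncl is lowest in normoxia at 9.81 to 9.84.

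Of the 3 abundant nucleolar proteins, Ddx21 rose with both siRNAs, Ncl with Si1, and Npm1 was called with neither. Ncl (nucleolin), a histone chaperone and RNA-binding protein of the nucleolus, read 9.84, 9.84 and 9.81 in normoxia, 10.32, 10.22 and 10.28 in the hypoxia control and 10.48, 10.44 and 10.51 in the negative control. It read 10.85, 10.59 and 10.71 with Si1 and 10.45, 10.49 and 10.46 with Si6. All hypoxic arrays were above normoxia, Si1 was above the rest, and Si6 overlapped the negative control. Ncl rose by 0.44 ± 0.06 in hypoxia (adjusted p = 5.6e-05), the largest rise among the members, and by 0.24 ± 0.06 with Si1 (adjusted p = 0.005, limma). With Si6 it changed by -0.01 ± 0.06 (adjusted p = 0.918). Its rise from the hypoxia control to the negative control, 0.21 ± 0.06 (adjusted p = 0.028), was lost without hypoxia control b or c or negative control a or c (0.070 to 0.119).

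Npm1 (nucleophosmin), a chaperone of ribosome assembly, read 10.47, 10.51 and 10.60 in normoxia, 10.96, 10.87 and 10.81 in the hypoxia control and 11.02, 10.90 and 11.09 in the negative control. It read 10.96, 10.85 and 10.78 with Si1 and 10.71, 11.00 and 11.02 with Si6. Normoxia was below all hypoxic arrays, and the 4 hypoxic groups overlapped. Npm1 rose by 0.35 ± 0.08 in hypoxia (adjusted p = 0.005) and changed by -0.14 ± 0.08 with Si1 (adjusted p = 0.228) and -0.09 ± 0.08 with Si6 (adjusted p = 0.462, limma). Ddx21, a helicase that links polymerase I transcription with precursor processing, followed the larger pattern instead. It read 9.27, 9.33 and 9.45 in normoxia, 9.08, 8.91 and 8.92 in the hypoxia control and 9.33, 9.32 and 9.34 in the negative control. It read 10.40, 10.48 and 10.44 with Si1 and 9.94, 9.89 and 9.95 with Si6. The 5 groups were apart except for normoxia and the negative control, and the rises were 1.11 ± 0.06 with Si1 (adjusted p = 8.7e-10) and 0.59 ± 0.06 with Si6 (adjusted p = 1.5e-06, limma). A dimmer Ddx21 probe set changed by 0.11 with Si1, 0.14 with Si6 and 0.20 in hypoxia without a call. Dimmer ones of Ddx18 and Npm1 changed by -0.03 to 0.07 in these comparisons.

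**Figure D5:**
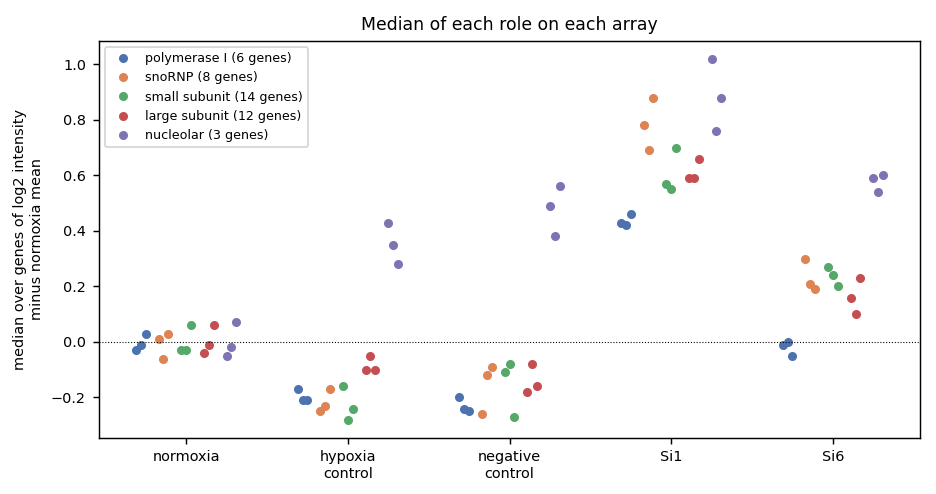
Median over the genes of a role of log2 intensity minus the gene's normoxia mean, on each array (points, 3 per group), for polymerase I (6 genes), snoRNP (8), small subunit (14), large subunit (12) and nucleolar genes (3). The Si1 medians run from 0.42 for polymerase I to 1.02 for the nucleolar genes, and the nucleolar genes alone stay above 0 in both hypoxic controls.

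Set against normoxia, the median change with Si1 was 0.44 for polymerase I, 0.80 for snoRNPs, 0.60 for the small subunit, 0.62 for the large subunit and 0.89 for the 3 nucleolar genes. With Si6 these medians were -0.03, 0.24, 0.27, 0.14 and 0.57. Of the 6 polymerase I genes, Rrn3 rose above normoxia with Si6 and Polr1b stayed below it, and the other 4 were not called. The Rrn3 call was lost without Si6 array b or c or normoxia array a (limma adjusted p = 0.063 to 0.103). Differences between roles were not tested.

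Of 106 further genes of ribosome biogenesis, 101 were measured. Hypoxia lowered 22 of them (21.8%, against 11.2% of all genes) and raised 8 (7.92%, against 9.87%), with a median of -0.05. Shares of all genes depend on brightness: of the 11090 genes in the brighter 50%, hypoxia lowered 2754 and raised 2261. The share of the 101 genes that hypoxia lowered was no larger than in that brighter part. With Si1 4195 of the 11090 genes rose, and with Si6 4007. The 101 genes were not counted separately in that part. From the hypoxia control to the negative control the median change of the 101 genes was -0.02. With Si1, 81 rose (80.2%, against 20.2% of all genes) and 1 fell (0.99%, against 14.8%), with a median of 0.41. With Si6, 51 rose (50.5%, against 17.0% of all genes), with a median of 0.19. Si1 was above Si6 in 51 (50.5%, against 14.5%) and below it in 1 (0.99%, against 13.4%). The largest rises with Si1 were those of Pno1 (1.19 ± 0.08, adjusted p = 7.2e-09, limma), an RNA-binding partner of Nob1, Rpf2 (1.17 ± 0.09), a partner of Rrs1, and Nol9 (1.16 ± 0.06), a polynucleotide kinase of precursor processing. Pno1 rose by 1.47 ± 0.08 with Si6 (adjusted p = 1.6e-09), more than with Si1. Nol9, Utp4 and Eif6 differed most between the siRNAs, by 0.91, 0.83 and 0.65, and with Si6 neither Utp4 (0.06) nor Eif6 (0.08) was called. The 1 gene that fell with Si1 was Cd3eap, a polymerase I subunit, by 0.27 ± 0.07 (adjusted p = 0.007, limma).

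Other gene groups moved alongside. Of 11 measured proliferation genes, 7 were lower in hypoxia (median -0.62, where 11.2% of all genes were lower). These were Pcna and Mcm2 to Mcm7, while Mki67, Top2a, Cdk1 and Aurkb changed by -0.18 to 0.07 without a call. With Si1, 9 rose and Mki67 fell (median 0.54, where 20.2% of all genes rose and 14.8% fell). With Si6, 11 rose (median 0.56, where 17.0% of all genes rose). All 11 were also higher in the negative control than in the hypoxia control (median 0.63, where 7.80% of all genes were higher). In that step the members' median change was 0.02. Of the 8 melanocyte markers, 5 fell with Si1 (where 14.8% of all genes fell) and 4 rose with Si6 (where 17.0% rose). From the hypoxia control to the negative control, 7 of the 8 were lower (median -0.48, where 7.51% of all genes were lower). All 8 were lower in Si1 than in Si6, where 13.4% of all genes were lower. Fewer dividing cells and less RNA per cell cannot be told apart in bulk samples. The part of proliferation, Myc or the deeper Hif1a knockdown of Si1 in the members' changes was not tested. The genes whose 5 group means followed the members' mean pattern most closely were Ifngr2, Timm17a, Srfbp1, Aldh4a1 and Nadk, each with a Pearson correlation of 0.998 over 5 group means among 5825 genes, given as a description.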

How the data were processed

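One-colour Affymetrix arrays of 15 cultures were analysed. The authors deposited 1 table of log2 intensities for 41345 probe sets, made with RMA and Partek per the submitters' processing notes, which give no version. Values ran from 2.6 to 14.9. RMA's quantile step makes array distributions alike, so a shift shared by every gene would not show, and dim genes have compressed changes. The table holds no detection calls.

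Platform annotation gave 23521 probe sets 1 gene symbol, 1814 several and 16010 none. Of those with 1 symbol, 23328 were found in RefSeq's gene table (GRCm38.p6), which changed 0 symbols. The probe set of highest mean stood for each of the 1082 genes with several, which left 22180 genes. From the deposited log2 values, limma 3.58.1 (R 4.3.3) estimated a mean for each of 5 groups from the 15 arrays, with eBayes moderation. Each two-sided test was adjusted over the 22180 genes of its comparison by Benjamini-Hochberg. Second probe sets were tested in a fit of the 23521 probe sets with 1 symbol and adjusted over those. The script was tested on simulated data. The number of arrays limits the precision: the median SE was 0.069 over members and 0.076 over all genes.

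The members and lists were chosen with earlier results of these data known. Array values are given for the member of each role with the largest change with Si1 and the largest difference between Si1 and Si6, and for the largest rise and fall between controls. Nob1, Npm1, Pes1 and Rrn3 were added to these after their values were seen, as were the comparisons of Si1 alone and Si6 alone with normoxia. No label says whether replicate letters a, b and c mark a shared culture or day, so the main fit did not pair them. Same-letter deviations from group means correlated at -0.16 to 0.14 over 30 pairs, which cannot exclude a pairing. Alternatives were other normalizations, filters on dim genes, probe set rules, variance settings, the letter as a block and leaving out each array. Scanner files were not analysed here.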

Additional observations from a re-analysis of the deposited data

Results flagged for a closer look

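Members are listed here because a test of Si1 against Si6 itself found a difference (limma, adjusted p under 0.05), although both siRNAs target Hif1a. Among polymerase I genes, Si1 exceeded Si6 on the log2 scale for Polr1b (0.64), Polr1a (0.58), Mybbp1a (0.50), Rrn3 (0.46) and Polr1c (0.25). Among snoRNP genes, Si1 exceeded Si6 on the log2 scale for Dkc1 (0.82), Rrp9 (0.72), Nop56 (0.64), Nhp2 (0.58), Nolc1 (0.47), Nop58 (0.33) and Gar1 (0.20). Among small subunit factors, Si1 exceeded Si6 on the log2 scale for Noc4l (0.61), Utp20 (0.58), Ltv1 (0.58), Wdr43 (0.56), Utp18 (0.52), Wdr75 (0.39), Ddx10 (0.39), Nop14 (0.35), Utp15 (0.33), Imp4 (0.29) and Rrp12 (0.29). Among large subunit factors, Si1 exceeded Si6 on the log2 scale for Nop2 (0.65), Nop16 (0.62), Ddx18 (0.52), Bop1 (0.51), Nip7 (0.37), Gnl3 (0.35), Noc2l (0.32), Rrs1 (0.31) and Wdr12 (0.21). Of the nucleolar proteins, Si1 exceeded Si6 on the log2 scale for Ddx21 (0.51) and Ncl (0.25). Nob1 was the 1 member lower in Si1, with a difference of -0.60. Dimmer probe sets of Nop56 (-0.07), Ddx21 (-0.04) and Ddx18 (0.05) did not show the difference (limma adjusted p = 0.589 to 0.829). The third probe set of Nop56 (0.50, adjusted p = 0.011) and the dimmer one of Rrs1 (0.26, adjusted p = 0.004, limma) did. The Si1 and Si6 arrays differed as well in Hif1a (-0.28), in Myc (0.91) and in all 8 melanocyte markers, which were lower in Si1, and the part of these in the members' differences was not tested.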

How the results depend on the processing

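Over 9 comparisons, the changes of the members were computed again under 10 alternatives and without each of the 15 arrays, which gave 9666 values. Of these, 9304 kept their side of the threshold, 221 lost a call, 141 gained one and 0 changed direction with a call. Direction was not compared for values without a call in both fits. The counts for Si1 and for Si6 against the negative control, for Si1 against Si6, for Si1 and for Si6 against normoxia and for hypoxia stayed within 1.5 times under the 10 alternatives. From the hypoxia control to the negative control, the 2 members lower became 4 with quantile normalization, 1 with median centring, 4 without the lowest 50% of genes and 1 with the replicate block. In the negative control against normoxia, the 5 members higher became 3 without variance moderation and 2 with only the compared groups. In the mean of both siRNAs against normoxia, the 1 member lower became 0 with median centring, 0 with the replicate block and 0 with only the compared groups. The replicate letter as a block otherwise left 40 higher and 1 lower with Si1, 35 higher with Si6, and 3 higher and 21 lower in hypoxia; 5 of 15 arrays correlated best with their own letter. Leaving out 1 array gave ranges of 3 to 4 higher and 16 to 22 lower in hypoxia, 4 to 8 and 1 to 3 between the hypoxic controls, 39 to 40 and 1 to 1 with Si1, 32 to 36 and 0 to 0 with Si6, and 29 to 35 and 1 to 1 for Si1 against Si6. Against normoxia they were 2 to 5 and 12 to 19 for the negative control, 35 to 36 and 0 to 1 for the mean of both siRNAs, 36 to 40 and 1 to 1 for Si1, and 18 to 25 and 1 to 1 for Si6. Groups of 3 arrays and the absence of detection calls limit what can be said of dim genes, and the causes of these shifts were not tested.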
